A study of Mus musculus with 4 samples.

Results

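The genes described here are 31 genes of cholesterol and fatty acid synthesis, chosen by name for their place in these pathways and matched by symbol to the Entrez identifiers of the deposited tables. All 31 were listed in each of the 4 libraries, among 15275 genes listed in all 4 and 17667 listed in at least 1. They comprise 17 enzymes of sterol synthesis, the sterol transfer gene *Stard4*, and 8 genes of fatty acid synthesis and desaturation. Another 5 are the genes of the sterol regulatory element-binding proteins (SREBPs) and of their regulators. RNA-seq was performed on sympathetic ganglia (SG) of thoracic levels T1-T4 from C57BL/6 mice, 12 weeks old, that had spent 1 day at 5 °C. The libraries were WT_1 and WT_2 from wild-type mice, 1 from TRKC+/- mice, which carry 1 mutated copy of the gene for the NT-3 receptor TRKC (*Ntrk3*), and 1 from AdNTF3-Tg mice, in which the adiponectin promoter drives the neurotrophin NT-3 in adipocytes. Each library was made from the pooled ganglia of several mice, so that the spread between animals is not seen, and each mutant genotype had 1 library and no replicate check.

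Cells make cholesterol from acetyl-CoA through mevalonate, farnesyl units and squalene, and make fatty acids from acetyl-CoA through malonyl-CoA. SREBP2 mainly drives the sterol genes and SREBP1 mainly the fatty acid genes; both are held in the endoplasmic reticulum by the INSIG proteins when sterols are plentiful and are escorted by SCAP when they are not. In the peripheral nervous system, neurons need sterols and fatty acids for axon membranes, and myelinating Schwann cells are known for high rates of both syntheses. Adipocytes also make fatty acids, and fat can adhere to dissected ganglia.

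The lipid synthesis genes were among the more abundant mRNAs of the ganglia, and their levels lay close together in the 4 libraries. Levels are given as FPKM, the reads of a gene scaled to its length and to the reads of the library. Mean levels over the 4 libraries ran from 22.4 FPKM for *Acaca* to 360.2 FPKM for *Acly*, and 19 of 31 genes were in the top 10% of genes by mean level. The ratio of the highest to the lowest library was between 1.03 (*Pmvk*) and 1.28 (*Idi1*), with a median of 1.10, against 1.13 for the 4130 genes of at least 20 FPKM and 1.25 for all genes listed in the 4 libraries. It was under 1.2 for 28 of 31 genes, a property held by 73.9% of the genes of at least 20 FPKM and by 40.4% of all genes. The 3 genes above that ratio were *Idi1*, highest in AdNTF3-Tg, *Insig2*, lowest in the library labelled TRKC+/-, and *Tm7sf2*, highest in WT_2 and lowest in AdNTF3-Tg.

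**Figure D1:**
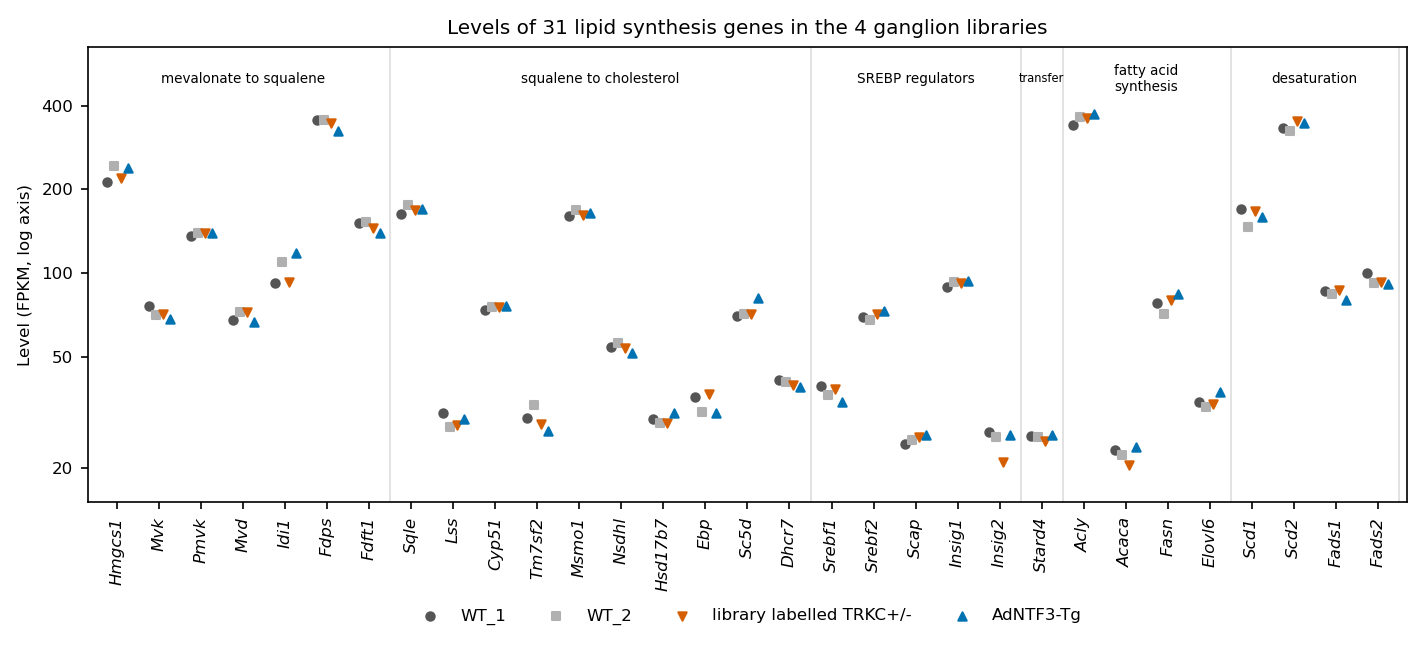
Level of each of the 31 genes (FPKM, log axis) in the 4 libraries, ordered by role, with 1 point per library and no error bar because each library is a single pool. The 4 points of a gene lie close together, apart from *Idi1* with a ratio of highest to lowest library of 1.28, *Insig2* with 1.28 and *Tm7sf2* with 1.24.

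Promoter sequences were examined because the rule that chose the genes did not use them. RefSeq promoters on GRCm38.p6 were matched for 24 of 31 genes, and the 250 bases before each annotated gene start were searched on both strands. A gene was counted for a motif when any of its promoter entries held it. The NF-Y box CCAAT, bound by a factor that acts with SREBPs, was found in 19 of 24 genes (79.2%), against 39.9% of the 12035 listed genes with a promoter. The GC box GGGCGG, an Sp1 motif, was found in 20 of 24 (83.3%, against 61.3%), and the E-box CACGTG in 5 of 24 (20.8%, against 9.5%). The strict sterol regulatory element TCACNCCAC was found in 1 of 24 (4.17%, against 1.24%), that of *Hmgcs1*. The background was not matched for level, and the GC box share was 35.4% over all genes with a promoter, listed or not. These matches describe letters in a window and are not measured binding. The promoters of *Idi1*, *Insig2* and *Fasn* are printed because these genes had the smallest p-values in the contrasts. That of *Hmgcs1* is printed because it holds the sterol regulatory element. Capitals mark CCAAT on either strand and TCACNCCAC. Only 1 promoter entry per gene is printed. The printed promoter of *Insig2* holds no GC box, though the gene is counted among the 20 with it. That of *Hmgcs1* lies at chr13:119690101-119690350 on the plus strand and holds 3 NF-Y boxes and 1 sterol regulatory element. That of *Idi1* lies at chr13:8885356-8885605 on the plus strand and holds 2 NF-Y boxes, that of *Insig2* at chr1:121332590-121332839 on the minus strand holds 3, and that of *Fasn* at chr11:120824548-120824797 on the minus strand holds 3, of which a pair overlap.
Hmgcs1: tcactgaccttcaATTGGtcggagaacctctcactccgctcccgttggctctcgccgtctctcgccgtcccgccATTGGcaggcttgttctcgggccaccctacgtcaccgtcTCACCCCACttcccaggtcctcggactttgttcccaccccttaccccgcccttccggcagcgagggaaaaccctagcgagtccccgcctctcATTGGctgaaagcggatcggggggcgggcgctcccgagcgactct
Idi1: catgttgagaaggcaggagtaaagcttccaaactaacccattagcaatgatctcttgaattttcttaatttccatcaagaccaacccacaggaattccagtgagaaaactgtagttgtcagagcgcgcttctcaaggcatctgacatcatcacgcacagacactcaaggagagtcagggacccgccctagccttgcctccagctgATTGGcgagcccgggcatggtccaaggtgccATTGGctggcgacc
Insig2: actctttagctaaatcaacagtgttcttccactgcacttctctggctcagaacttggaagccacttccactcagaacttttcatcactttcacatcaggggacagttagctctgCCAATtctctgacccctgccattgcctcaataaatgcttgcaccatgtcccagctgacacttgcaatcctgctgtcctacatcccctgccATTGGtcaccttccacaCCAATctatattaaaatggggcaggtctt
Fasn: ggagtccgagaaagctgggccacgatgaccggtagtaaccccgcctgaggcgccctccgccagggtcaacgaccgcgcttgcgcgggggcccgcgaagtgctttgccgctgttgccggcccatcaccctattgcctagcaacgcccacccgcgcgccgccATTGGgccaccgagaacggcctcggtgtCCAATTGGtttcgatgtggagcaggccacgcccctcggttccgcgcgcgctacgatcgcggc

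The libraries held from 8665955 to 8894985 reads on genes, of which each gene described here had between 341 and 16900.1 reads. The level of *Ntrk3* was 2.45 FPKM in WT_1, 2.52 in WT_2, 2.72 in the library labelled TRKC+/- and 2.32 in AdNTF3-Tg, so the targeted gene was not lower in the library labelled TRKC+/-. The deposited values are per gene and the mutated part of *Ntrk3* is not given in the sources used here, so reads on the gene may not check the genotype, and the library is named by its label. *Ntf3*, the NT-3 gene itself, was listed with 2 reads in the library labelled TRKC+/- and was not listed in the others. All 15 sympathetic neuron markers were listed in the 4 libraries and held between 2.47% and 2.54% of reads. None was past the cutoff against WT, where 4.27% of all genes were in the library labelled TRKC+/- and 5.7% in AdNTF3-Tg. The WT libraries differed in skeletal muscle genes, with 1460 reads in WT_1 and 36 in WT_2 for the muscle markers, against 653 in the library labelled TRKC+/- and 489 in AdNTF3-Tg, so that WT_2 stood apart, and all 8 of the 10 muscle markers that were listed in every library were higher in WT_1. In pooled tissue RNA, fewer cells of a type and less RNA per cell cannot be told apart.

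Each mutant library was compared with each WT library, because the sample labels do not pair them. The study describes separate WT controls for each mutant, so the difference between WT_1 and WT_2 may include a difference between cohorts, as may that between the mutants. A gene was called when log2 of the ratio of FPKM + 0.1 was at least 0.5 in the same direction against both WT libraries, which is a 1.41-fold difference and the cutoff of the study's methods. In the library labelled TRKC+/-, 0 of 31 genes were called, where 4.27% of all genes and 0.169% of the genes of at least 20 FPKM were. In AdNTF3-Tg, 0 of 31 were called, where the background was 5.7% of all genes and 0.266% of the genes of at least 20 FPKM. Between AdNTF3-Tg and the library labelled TRKC+/- (13.1% of all genes, 0.993% of those of at least 20 FPKM) and between WT_1 and WT_2 (13.4% and 1.02%), the number called was also 0 of 31. At the level of these genes a count of 0 was near the background. The counting error was small enough to bound most differences: the exact 95% interval of the log2 ratio of reads lay wholly within 0.5 of 0 for 30 or 31 of 31 genes in each of the 6 pairs of libraries, the exceptions being *Insig2* and *Tm7sf2*. These intervals cover counting error only and not the spread between animals or preparations.

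edgeR's quasi-likelihood test on the expected counts, in which the spread comes from the WT pair alone, called 0 of 31 genes after Benjamini-Hochberg adjustment over 14156 genes in each of the 3 contrasts. At an unadjusted p under 0.05 it gave *Insig2* for the library labelled TRKC+/- against WT, *Fasn* for AdNTF3-Tg against WT, and *Idi1* and *Insig2* between the mutants. The background at that p was 1.93%, 5.88% and 4.68% of genes in the same order. DESeq2's Wald test gave 0 of 31 at an unadjusted p under 0.05 in each contrast. After adjustment, edgeR called 0.00706% of genes in either contrast with the library labelled TRKC+/- and none in AdNTF3-Tg against WT, and DESeq2 called 0.0114% for the library labelled TRKC+/- against WT, 0.00568% between the mutants and none in AdNTF3-Tg against WT. Over all genes, edgeR called *Ucp1*, the uncoupling protein of thermogenic adipocytes, in the contrasts with the library labelled TRKC+/- (log2 −2.62 against WT, adjusted p = 0.00205) and no gene in AdNTF3-Tg against WT. With no filter on low counts it called 0 genes in all 3 contrasts.

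**Figure D2:**
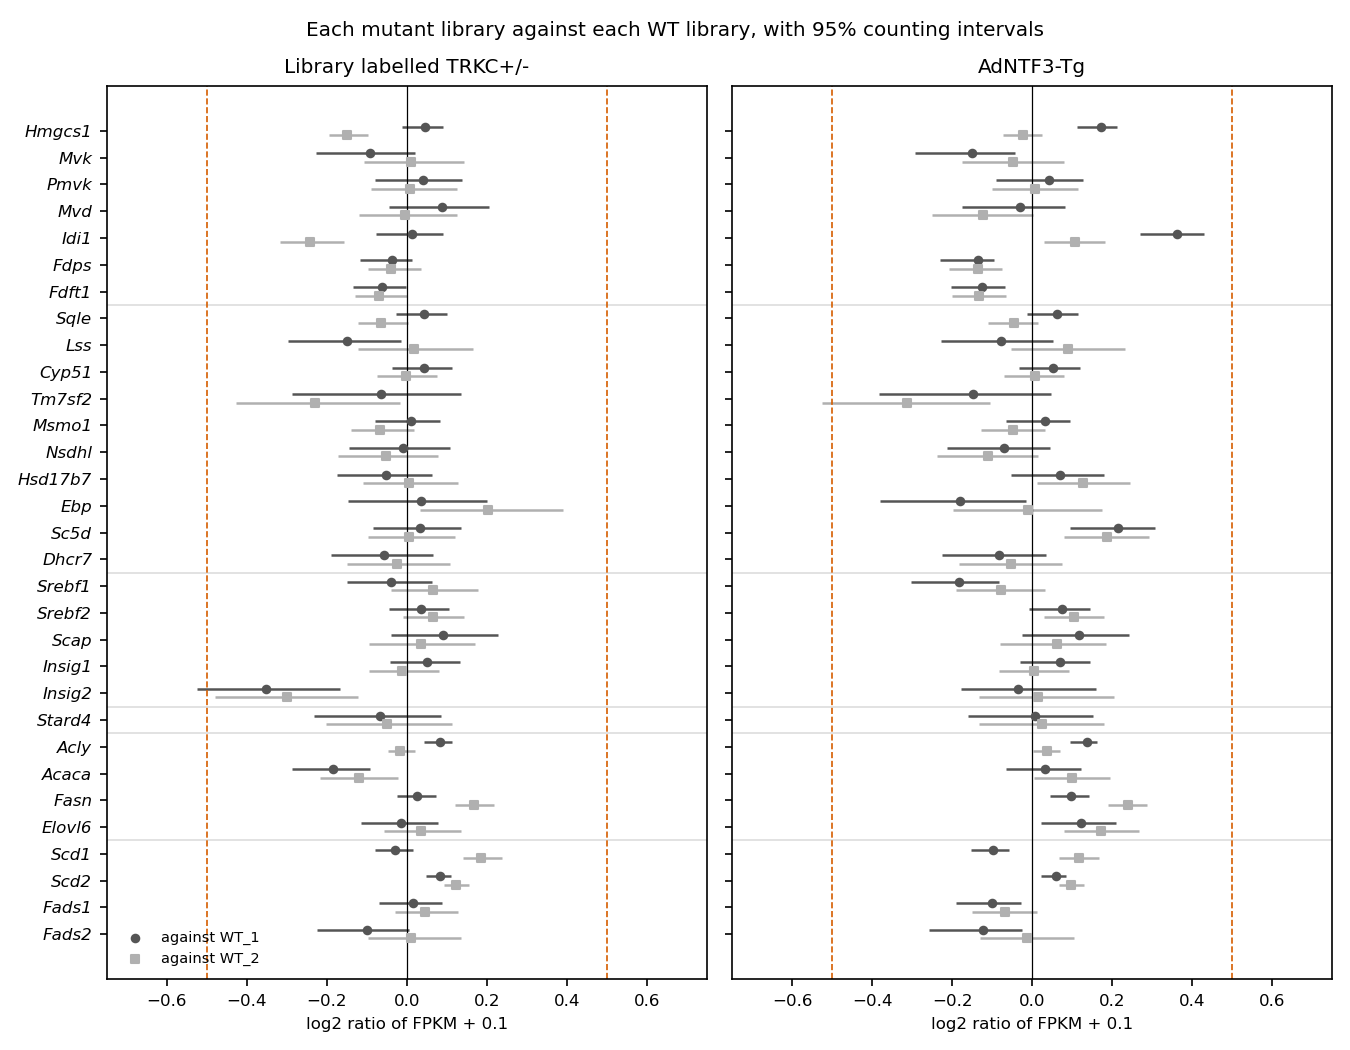
Log2 ratio of FPKM + 0.1 of each mutant library to WT_1 (dark circles) and WT_2 (light squares) for the 31 genes, with exact 95% counting intervals of the reads as bars and dashed lines at the cutoff of 0.5 in either direction. No point passes a dashed line, and the point farthest from 0 is *Idi1* in AdNTF3-Tg against WT_1, at 0.36.

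The enzymes from mevalonate to squalene had mean levels between 69.9 and 345.4 FPKM. *Fdps*, farnesyl diphosphate synthase, was the highest of all sterol enzymes, at 355.5 FPKM in WT_1, 355.8 in WT_2, 346.3 in the library labelled TRKC+/- and 323.9 in AdNTF3-Tg. The AdNTF3-Tg value lay below those of the other libraries, with log2 ratios of −0.13 to WT_1 and −0.14 to WT_2 and counting intervals below 0. *Fdft1*, squalene synthase and the next enzyme on the way to sterols, had levels of 151.6, 152.4, 145.3 and 139.1 FPKM in that order. It too was lowest in AdNTF3-Tg, with log2 ratios of −0.12 and −0.13 and intervals below 0.

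*Idi1*, isopentenyl-diphosphate isomerase, varied most. Its level was 92.0 FPKM in WT_1, 109.9 in WT_2, 92.9 in the library labelled TRKC+/- and 118.3 in AdNTF3-Tg, from 2265, 2740, 2336 and 2935 reads. AdNTF3-Tg was highest, and the library labelled TRKC+/- lay between the WT libraries, next to WT_1. The log2 ratio of AdNTF3-Tg was 0.36 to WT_1 (counting interval 0.27 to 0.43) and 0.11 to WT_2 (0.03 to 0.18), so its size depended on the WT library. The WT libraries themselves differed by −0.25 (WT_1 over WT_2, −0.33 to −0.16). Between the mutants the log2 ratio was 0.35 (edgeR unadjusted p = 0.0268, adjusted p = 0.940), and the unadjusted p was not under 0.05 with no filter on low counts.

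*Hmgcs1*, the cytosolic HMG-CoA synthase at the head of the mevalonate route, had 212.5 FPKM in WT_1, 243.4 in WT_2, 219.4 in the library labelled TRKC+/- and 239.6 in AdNTF3-Tg. Like *Idi1*, it was lower in WT_1 and the library labelled TRKC+/- than in WT_2 and AdNTF3-Tg, and both mutants lay between the WT values. The other 3 genes of this stretch are *Mvk* and *Pmvk*, the kinases that act on mevalonate and phosphomevalonate, and *Mvd*, the decarboxylase that makes isopentenyl diphosphate. *Mvk* ran from 68.4 FPKM in AdNTF3-Tg to 75.9 in WT_1, *Mvd* from 66.6 in AdNTF3-Tg to 72.6 in WT_2, and *Pmvk* from 135.7 in WT_1 to 139.7 in AdNTF3-Tg. *Pmvk* was the steadiest of the 31 genes.

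The enzymes from squalene to cholesterol had mean levels between 29.5 and 169.4 FPKM. *Sqle*, the squalene epoxidase that commits squalene to sterols, was the highest, at 163.2 FPKM in WT_1, 175.9 in WT_2, 168.2 in the library labelled TRKC+/- and 170.3 in AdNTF3-Tg. Both mutants lay between the WT values. *Msmo1* and *Nsdhl*, which remove the methyl groups at carbon 4 of the sterol ring, and *Cyp51*, the lanosterol demethylase, differed between the highest and the lowest library by ratios of 1.06, 1.08 and 1.04.

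*Sc5d*, the sterol desaturase of a late step, had 69.9 FPKM in WT_1, 71.3 in WT_2, 71.5 in the library labelled TRKC+/- and 81.1 in AdNTF3-Tg. The other libraries were close together and AdNTF3-Tg stood above them, with log2 ratios of 0.21 to WT_1 and 0.19 to WT_2 and counting intervals above 0. *Tm7sf2*, a sterol reductase, had the fewest reads of the 31 genes and levels of 30.0, 33.7, 28.7 and 27.1 FPKM in WT_1, WT_2, the library labelled TRKC+/- and AdNTF3-Tg. It was highest in WT_2 and lowest in AdNTF3-Tg, with a log2 ratio of −0.31 between these (−0.52 to −0.11) but −0.15 to WT_1 with an interval that held 0.

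The remaining enzymes of this stretch are *Lss*, which closes the sterol rings, *Hsd17b7*, a ketoreductase, *Ebp*, a sterol isomerase, and *Dhcr7*, the reductase of the final step from 7-dehydrocholesterol. Their levels ran from 28.1 to 31.5 FPKM for *Lss*, from 28.9 to 31.5 for *Hsd17b7*, from 31.6 to 36.6 for *Ebp* and from 39.0 to 41.4 for *Dhcr7*. None had a counting interval off 0 in the same direction against both WT libraries in either mutant.

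Of the SREBP genes, *Srebf2* (SREBP2) had 69.5 FPKM in WT_1, 68.0 in WT_2, 71.2 in the library labelled TRKC+/- and 73.2 in AdNTF3-Tg. *Srebf1*, the SREBP1 gene, was lower than *Srebf2* in every library, at 39.2, 36.5, 38.2 and 34.5 FPKM in that order. AdNTF3-Tg thus had the highest *Srebf2* and the lowest *Srebf1* of the 4 libraries, but the interval for *Srebf1* against WT_2 (−0.19 to 0.03) and that for *Srebf2* against WT_1 (−0.01 to 0.14) held 0. The escort gene *Scap* ran from 24.2 FPKM in WT_1 to 26.3 in AdNTF3-Tg.

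The genes for the retention proteins differed in pattern. *Insig1*, itself a target of the SREBPs, had 89.2 FPKM in WT_1, 93.2 in WT_2, 92.4 in the library labelled TRKC+/- and 93.6 in AdNTF3-Tg. *Insig2* had 26.8, 25.8, 21.0 and 26.1 FPKM in the same order, from 578, 572, 467 and 584 reads. The library labelled TRKC+/- was below the others, which lay together. Its log2 ratio was −0.35 to WT_1 (counting interval −0.52 to −0.17) and −0.30 to WT_2 (−0.48 to −0.12), and AdNTF3-Tg exceeded it by 0.32 (0.16 to 0.52). In edgeR the difference from WT was −0.32 with an unadjusted p of 0.0250 and an adjusted p of 0.999, and DESeq2 gave an unadjusted p of 0.178. The value therefore did not pass the cutoff or the test, and it rests on 1 library. *Stard4*, which carries sterols between membranes, had 26.1 FPKM in WT_1, 25.8 in WT_2, 24.9 in the library labelled TRKC+/- and 26.2 in AdNTF3-Tg.

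The 4 genes that make and elongate saturated fatty acids were above both WT libraries in AdNTF3-Tg, by small amounts, as were 33.7% of all genes and 28.8% of those of at least 20 FPKM. *Acly*, the ATP-citrate lyase that supplies cytosolic acetyl-CoA to both pathways, was the most abundant of all 31 genes, at 340.7 FPKM in WT_1, 365.0 in WT_2, 360.6 in the library labelled TRKC+/- and 374.6 in AdNTF3-Tg. *Fasn*, the fatty acid synthase, had 78.4, 71.1, 79.8 and 83.9 FPKM in the same order, from 6734, 6216, 7025 and 7304 reads. WT_2 was lowest and AdNTF3-Tg highest, with log2 ratios of AdNTF3-Tg of 0.10 to WT_1 (0.05 to 0.14) and 0.24 to WT_2 (0.19 to 0.29). In edgeR *Fasn* had an unadjusted p of 0.0458 and an adjusted p of 0.817 against WT.

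*Acaca*, the acetyl-CoA carboxylase that makes malonyl-CoA, had 23.2 FPKM in WT_1, 22.2 in WT_2, 20.4 in the library labelled TRKC+/- and 23.8 in AdNTF3-Tg. It was lowest in the library labelled TRKC+/-, with log2 ratios of −0.19 to WT_1 and −0.12 to WT_2 and counting intervals below 0. *Elovl6*, which elongates palmitate, had 34.3, 33.1, 34.0 and 37.4 FPKM in the same order, with log2 ratios of AdNTF3-Tg to the WT libraries of 0.12 and 0.17. The median log2 ratio of the 4 genes in AdNTF3-Tg was 0.12, where that of all genes was 0.00, and 3 of 4 had counting intervals above 0 against both WT libraries, as had 7.17% of the genes of at least 20 FPKM. In the library labelled TRKC+/- the median was 0.02.

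Among the desaturases, *Scd2* was the higher of the stearoyl-CoA desaturase genes, which place a double bond at carbon 9. It had 331.8 FPKM in WT_1, 323.1 in WT_2, 351.6 in the library labelled TRKC+/- and 345.9 in AdNTF3-Tg, above WT in both mutants by log2 ratios between 0.06 and 0.12 with intervals above 0. *Scd1* had 170.5, 146.9, 167.2 and 159.3 FPKM in the same order, and both mutants lay between the WT values. The ratio of *Scd2* to *Scd1* in FPKM was 1.95 in WT_1, 2.20 in WT_2, 2.10 in the library labelled TRKC+/- and 2.17 in AdNTF3-Tg. *Scd1* and *Scd2* are close in sequence and were the only genes of the 31 with counts that were not whole, so the division of reads between them is uncertain. *Fads1* and *Fads2*, the desaturases of polyunsaturated fatty acids, ran from 80.2 to 86.8 and from 91.6 to 99.7 FPKM, and both were lowest in AdNTF3-Tg.

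More of the genes had counting intervals off 0 against both WT libraries in AdNTF3-Tg than in the library labelled TRKC+/-. In the library labelled TRKC+/-, 1 gene (*Scd2*) had intervals above 0 against both WT libraries and 2 (*Insig2* and *Acaca*) below, where 4.53% and 4.46% of the genes of at least 20 FPKM did and 2.34% and 2.12% of all genes. In AdNTF3-Tg, 6 genes (*Idi1*, *Sc5d*, *Acly*, *Fasn*, *Elovl6* and *Scd2*) were above and 2 (*Fdps* and *Fdft1*) below, where 7.17% and 13.4% of the genes of at least 20 FPKM were and 4.84% and 5.31% of all genes. The values of the library labelled TRKC+/- lay between the WT values for 15 of 31 genes (background 34.8% of all genes and 36.1% of those of at least 20 FPKM), and those of AdNTF3-Tg for 6 of 31 (29.3% and 28.6%). AdNTF3-Tg was above both WT libraries for 14 of 31 genes (33.7% of all genes and 28.8% of those of at least 20 FPKM) and below both for 11 (34% and 42.4%).

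**Figure D3:**
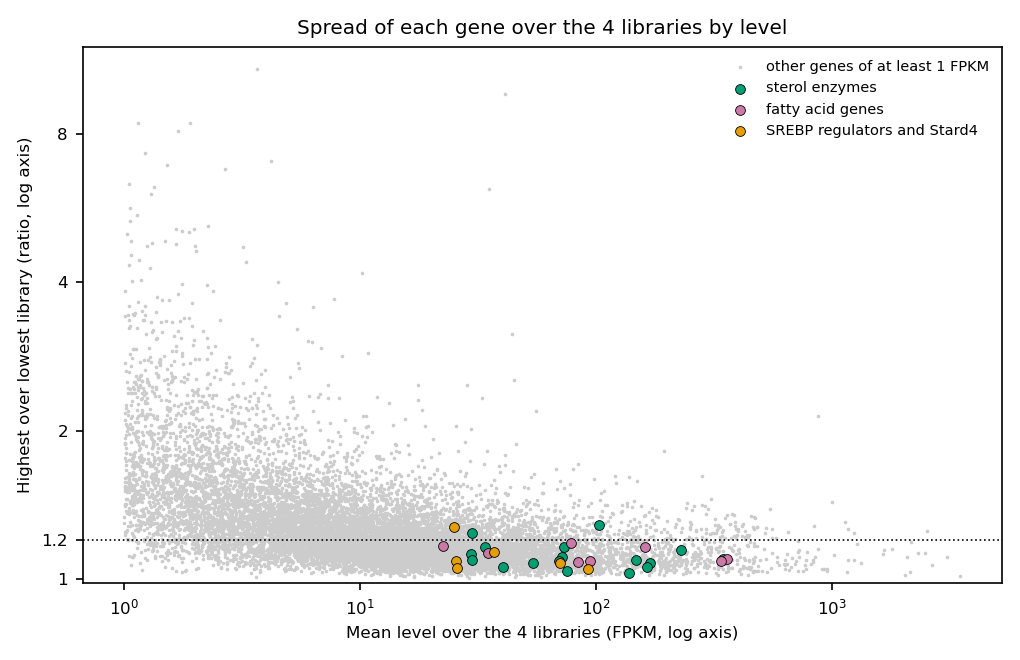
Ratio of the highest to the lowest library (log axis) against the mean level over the 4 libraries (FPKM, log axis), with 1 point per gene of at least 1 FPKM, the 31 lipid synthesis genes in colour and a dotted line at 1.2. The coloured points lie among the other genes of their level, 28 of 31 under the line. Not drawn are 17 genes with a ratio above the range of the axis.

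Sterol and fatty acid genes were then set side by side. Against WT, the median log2 ratio of the 17 sterol enzymes was −0.03 in the library labelled TRKC+/- and −0.01 in AdNTF3-Tg, and that of the 8 fatty acid genes was 0.03 and 0.07. Between WT_1 and WT_2 the medians were −0.03 and 0.06. The sterol enzymes together took 0.399% of reads in WT_1, 0.415% in WT_2, 0.397% in the library labelled TRKC+/- and 0.407% in AdNTF3-Tg, and the fatty acid genes 0.575%, 0.556%, 0.589% and 0.593%. The reads of the sterol enzymes over those of the fatty acid genes gave ratios of 0.694 in WT_1 and 0.747 in WT_2, and of 0.675 and 0.685 in the library labelled TRKC+/- and AdNTF3-Tg. Both mutants were below both WT libraries. The gap between the WT libraries was wider than the gap from either mutant to WT_1 but narrower than that to WT_2. With 1 library per mutant the difference between the groups of genes was not tested.

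Adipocyte markers were present in every library, and none of the 17 was at 0. They held 0.0652% of reads in WT_1, 0.0546% in WT_2, 0.0407% in the library labelled TRKC+/- and 0.0483% in AdNTF3-Tg. Their summed reads were lower in both mutants than in both WT libraries, by log2 ratios from −0.68 to −0.42 in the library labelled TRKC+/- and from −0.43 to −0.18 in AdNTF3-Tg. The summed reads of the fatty acid genes were higher in both mutants than in both WT libraries, by 0.04 and 0.08 in the library labelled TRKC+/- and by 0.05 and 0.09 in AdNTF3-Tg. Between the WT libraries both sums were higher in WT_1, by 0.05 and 0.26. The adipocyte sum depended in part on *Ucp1*, *Fabp4* and *Gpd1*. The other 14 markers had 2616 reads in WT_1, 1966 in WT_2, 2131 in the library labelled TRKC+/- and 1916 in AdNTF3-Tg, so that their sum in the library labelled TRKC+/- lay between the WT libraries, with log2 ratios of −0.33 to WT_1 and 0.11 to WT_2 (0.02 to 0.20). In AdNTF3-Tg it was −0.47 to WT_1 and −0.03 to WT_2, the last with an interval that held 0. The part of adhering fat in the levels of the fatty acid genes was not tested.

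Of the 17 adipocyte markers, 4 were called lower in the library labelled TRKC+/- and 3 in AdNTF3-Tg, where 2.49% and 3.58% of all genes were. By the mean of both ratios, 13 of 17 were below 0 and 4 above in the library labelled TRKC+/-, and 14 below and 3 above in AdNTF3-Tg. The median over the 17 depended on the WT library, at −0.43 to WT_1 and −0.10 to WT_2 in the library labelled TRKC+/- and at −0.50 and −0.13 in AdNTF3-Tg. *Ucp1* had 47.3 FPKM in WT_1, 48.1 in WT_2, 7.8 in the library labelled TRKC+/- and 37.8 in AdNTF3-Tg. *Fabp4*, the fatty acid-binding protein of adipocytes and the highest of the list, had 244.0, 224.7, 134.5 and 173.0 FPKM in the same order. *Gpd1*, which makes glycerol phosphate, had 46.7, 42.9, 27.6 and 38.5, and *Elovl3*, an elongase of brown fat, had 2.71, 2.87, 0.56 and 1.75. Markers above 0 in the library labelled TRKC+/- were *Lep*, *Plin4*, *Retn* and *Cfd*, and the log2 ratio of *Cfd*, an adipocyte protease, was −0.20 to WT_1 and 0.48 to WT_2. In AdNTF3-Tg the genes called were *Elovl3*, *Lep* (0.36, 0.53, 0.67 and 0.11 FPKM) and *Aqp7* (1.33, 0.78, 0.73 and 0.24 FPKM). The call of *Lep* rests on 3 reads in AdNTF3-Tg, against 10 in WT_1 and 15 in WT_2, and the counting intervals to WT_1 held 0 for *Lep* (−4.26 to 0.20) and for *Elovl3* (−1.38 to 0.08). In the library labelled TRKC+/-, where *Fabp4* had log2 ratios of −0.86 to WT_1 and −0.74 to WT_2, those of *Fasn* were 0.03 and 0.17 and those of *Acaca* were −0.19 and −0.12.

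**Figure D4:**
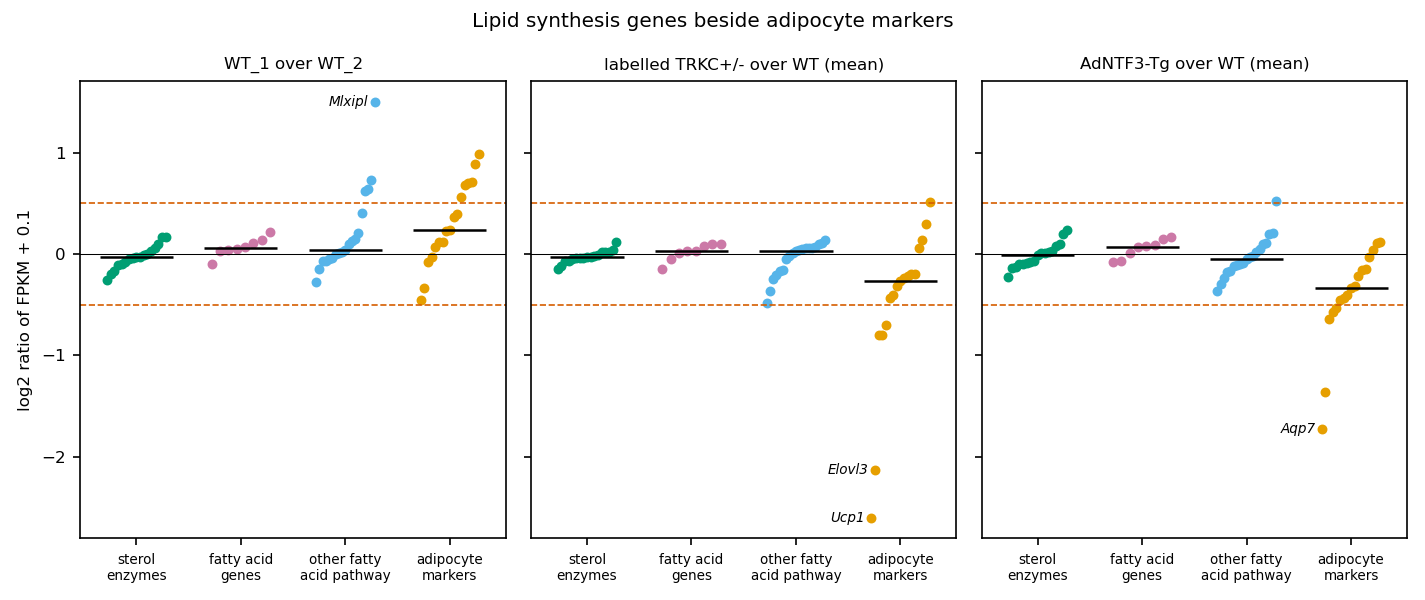
Log2 ratio of FPKM + 0.1 for each gene of 4 lists in 3 comparisons, with 1 point per gene, black bars at the medians and dashed lines at 0.5 in either direction. Sterol enzymes and fatty acid genes stay within the dashed lines in each comparison, while adipocyte markers reach −2.60 (*Ucp1*, library labelled TRKC+/- over the mean of both WT ratios).

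Other genes of the fatty acid pathway included some that differed between the WT libraries. Of 19 listed in all libraries, 0 were called against WT in the library labelled TRKC+/- (4.27% of all genes) or in AdNTF3-Tg (5.7%). The medians were 0.03 in the library labelled TRKC+/- and −0.05 in AdNTF3-Tg. Between the WT libraries, 4 of 19 were higher in WT_1, where 7.71% of all genes were. *Thrsp*, a lipogenic protein of fat and liver, had 34.1 FPKM in WT_1, 20.6 in WT_2, 29.2 in the library labelled TRKC+/- and 22.5 in AdNTF3-Tg. *Acacb*, the mitochondrial carboxylase isoform, had 3.45, 2.17, 1.93 and 2.22, and *Mlxipl*, the carbohydrate-responsive transcription factor, had 1.79, 0.57, 1.06 and 1.52. The last was *Scd4*, at 0.30 FPKM in WT_1 and at or under 0.20 in the others, from 7.8 expected reads in WT_1 and 4.38 in WT_2, and the counting interval of the log2 ratio of these reads held 0 (−0.87 to 3.21). In the same pair of libraries 6 of 17 adipocyte markers and all muscle markers listed in every library were higher in WT_1, and their part in these values was not tested. *Tecr*, the reductase of the elongation cycle, was the highest of the list, at 507.9, 458.2, 484.6 and 429.0 FPKM in WT_1, WT_2, the library labelled TRKC+/- and AdNTF3-Tg.

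The 22 other sterol genes cover further synthesis and SREBP-processing genes as well as uptake, transport, efflux and oxysterols. Of these, 0 were called against WT in the library labelled TRKC+/- (4.27% of all genes) or in AdNTF3-Tg (5.7%), with medians of 0.09 and 0.02. *Acat2*, the acetoacetyl-CoA thiolase that precedes *Hmgcs1*, was the highest, at 135.4 FPKM in WT_1, 137.7 in WT_2, 136.0 in the library labelled TRKC+/- and 131.4 in AdNTF3-Tg. *Nr1h3*, the sterol-sensing nuclear receptor LXRα, had 4.10, 3.98, 5.81 and 3.23 FPKM in the same order. Its log2 ratios of 0.49 and 0.53 in the library labelled TRKC+/- fell on either side of the cutoff, and it was the 1 gene of the list called between the mutants (−0.83, AdNTF3-Tg over the library labelled TRKC+/-), where 7.14% of all genes were called lower.

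Markers of the other cells of the ganglion were examined too. The 15 myelinating Schwann cell markers held between 0.124% and 0.135% of reads, with 2 called higher in the library labelled TRKC+/- (*Cldn19* and *Ugt8a*) and 1 in AdNTF3-Tg (*Ugt8a*), where 1.78% and 2.12% of all genes were called higher. Both genes were under 2 FPKM in every library. *Cldn19* had 22 reads in WT_1, 14 in WT_2, 19 in the library labelled TRKC+/- and 18 in AdNTF3-Tg, so its reads did not show the difference in FPKM, and *Ugt8a* had 10, 9, 19 and 18. The counting intervals of both genes held 0 against each WT library. *Pmp22*, the highest of that list, ran from 357.8 to 377.6 FPKM. The 8 satellite glia markers held between 0.115% and 0.135% of reads and the 6 macrophage markers between 0.0166% and 0.0218%. In either list 0 were called against WT, where 4.27% of all genes were in the library labelled TRKC+/- and 5.7% in AdNTF3-Tg. The summed reads of the satellite glia markers were lowest in WT_2, with log2 ratios over it of 0.22 in WT_1, 0.21 in the library labelled TRKC+/- and 0.16 in AdNTF3-Tg, and over WT_1 of −0.01 and −0.07 in the mutants. All 8 were above 0 by the mean of both ratios in the library labelled TRKC+/-. Between the WT libraries, 2 of 8 satellite glia markers (both higher in WT_1) and 4 of 15 myelinating Schwann cell markers (3 higher and 1 lower) passed the cutoff, where 13.4% of all genes did. The summed reads of the fatty acid genes were also lowest in WT_2, with log2 ratios over it of 0.05 in WT_1, 0.08 in the library labelled TRKC+/- and 0.09 in AdNTF3-Tg, but over WT_1 they were 0.04 and 0.05 in the mutants. The part of the glial cells in these values was not tested. The summed reads of the macrophage markers had log2 ratios of −0.39 to WT_1 and −0.08 to WT_2 in AdNTF3-Tg, and of −0.15 and 0.16 in the library labelled TRKC+/-.

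**Figure D5:**
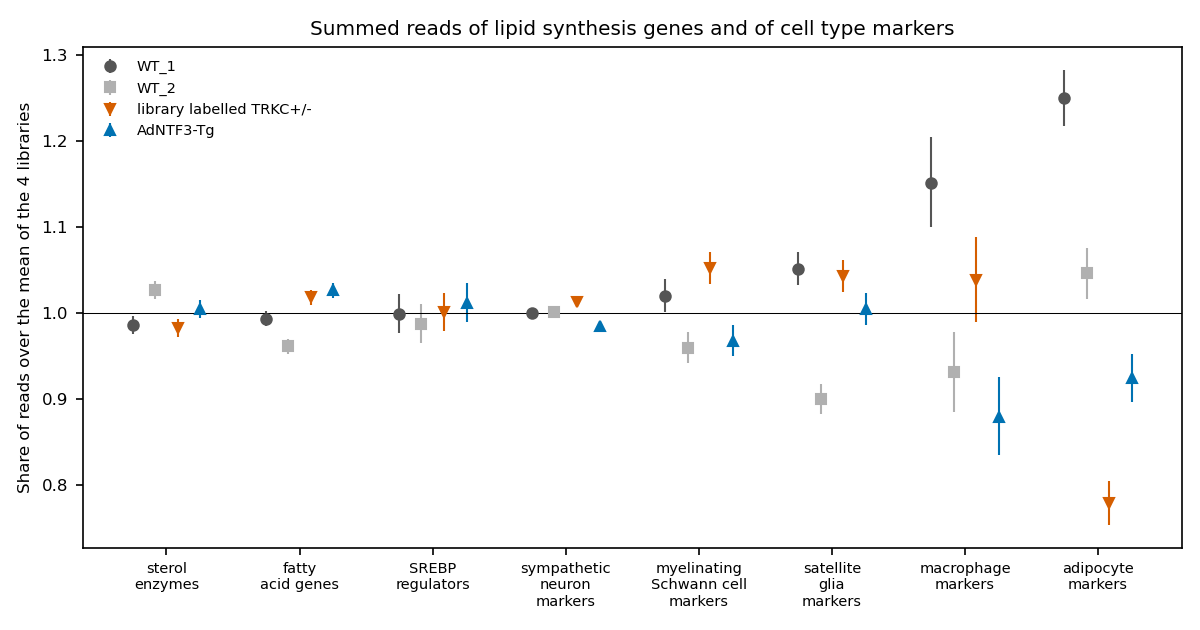
Share of reads held by each list of genes, divided by its mean over the 4 libraries, with 1 point per library and exact 95% counting intervals as bars. The sterol enzymes lie within a ratio of highest to lowest of 1.04 and the fatty acid genes of 1.07, against 1.60 for the adipocyte markers.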

How the data were processed

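Sympathetic ganglia from T1-T4 of pooled mice gave 4 RNA-seq libraries. After selection of mRNA on oligo(dT) beads, the authors used SOAPnuke (v1.5.2) as a read filter and HISAT2 (v2.0.4) to align to mm9, while the submitters' processing notes name RSEM and mm10. The build could not be settled from the tables, which hold no coordinates. The deposited tables give, per Entrez identifier, an expected count without normalization. Their other value is the authors' FPKM, which the authors scaled to gene length and library. Whether the counting used strand is not given in the sources used here. Between 92.6% and 93.7% of expected counts were whole.

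Symbols came from a RefSeq table on GRCm38.p6, which matched 17619 of 17667 identifiers (99.7%). Members and gene lists were chosen with earlier results of these data known. Log2 ratios used FPKM + 0.1 over genes listed in all libraries, and the value against WT is the mean of the ratios to WT_1 and WT_2. Intervals are exact Clopper-Pearson intervals (95%) of rounded expected counts per reads on genes, whose scale differs slightly from that of FPKM. The floor of 3 reads was between 0.337 and 0.346 CPM. Expected counts rounded to whole numbers were tested with edgeR (v4.0.16, R v4.3.3) with TMM scaling, its filter on low counts, and 1 residual degree of freedom, and each mutant library was assumed to vary like the WT pair. P-values were adjusted over all genes tested. DESeq2 (v1.42.0) was an alternative. Scripts were tested on simulated data.

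The rule for values in every library took members called, the highest of each list, and *Hmgcs1*, *Sqle*, *Insig1*, *Srebf1*, *Srebf2*, *Stard4*, *Fasn*, *Acaca*, *Acly*, *Scd1* and *Scd2*. *Idi1*, *Insig2*, *Sc5d*, *Tm7sf2*, *Fdft1*, *Elovl6*, *Nr1h3*, *Cfd* and the genes that differed between the WT libraries were added after their values were seen. Other lists were genes of both pathways outside the 31, and markers of adipocytes, myelinating Schwann cells, satellite glia, sympathetic neurons, skeletal muscle and macrophages. The ratio of 1.2 between the highest and the lowest library was also set after values were seen.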

Additional observations from a re-analysis of the deposited data

How the results depend on the processing

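The number of genes past the cutoff was 0 of 31 in each comparison when the pseudocount was 1 or 0.01, after dropping genes whose mean was under 1 FPKM, with unlisted genes set to 0, with TMM or DESeq2 size factors on expected counts, with centred ratios, with a cutoff of 1, and against either WT library alone. Under the other scalings and filters the log2 ratio of a gene shifted by at most 0.03, and against 1 WT library by at most 0.13. The median of all genes shifted by at most 0.01. Without WT replicate 1 or 2, the median log2 ratio of the sterol enzymes ran from −0.03 to 0.01 in the library labelled TRKC+/- and from −0.05 to −0.03 in AdNTF3-Tg, and that of the fatty acid genes from 0.00 to 0.04 and from 0.05 to 0.10. edgeR called 0 of 31 genes with DESeq2 size factors and with no filter, as did DESeq2. At an unadjusted p under 0.05, *Insig2* remained for the library labelled TRKC+/- in each edgeR setting, *Fasn* was lost in AdNTF3-Tg and *Idi1* between the mutants with no filter, and *Acaca* was gained between the mutants with DESeq2 size factors. Over all genes, the *Ucp1* call of edgeR was lost with no filter. Without a WT library edgeR had no residual degree of freedom, so no test was made. The background of genes of at least 20 FPKM and the adipocyte sum without 3 markers were chosen after seeing the data. No paired analysis was possible because each mutant had 1 library and its label carries no replicate number.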
